A study of Mus musculus with 12 samples.

Results

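The comparison described here is that of mouse epiblast-like cells (EpiLCs) on day 2 of induction in which *Pcx*, *Me1* and *Me2* were repressed together (3×KD) with EpiLCs of the same day that carried scramble guides (Neg). Its libraries were chosen by their titles. They are 6 of the 12 libraries of the series, 3 for each group, and the other 6 are the same lines as naive embryonic stem cells (ESCs). The deposited tables covered 57180 genes, of which 25446 were tested.

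All libraries derive from E14 mouse ESCs with a doxycycline-inducible CRISPR interference system, in which dCas9 fused to repressor domains, KRAB among them, and the TetON3G activator were placed at the *Tigre* locus. Per the study's methods this line goes back to a chosen clone, and guides were added by piggyBac transfection. The Neg line carries scramble guides, the 3×KD line carries guides to the 3 targets, and both were given doxycycline and cultured under low oxygen. ESCs were kept in 2i and LIF, and EpiLCs were induced from them with Activin A, Fgf2 and the tankyrase inhibitor XAV939. The cell type field of the labels goes against the titles, because it calls every Neg library ESCs and every 3×KD library EpiLCs. Titles and library names were therefore followed, and the marker levels given further on bear on that choice. The study's methods call replicates biological in general terms, and the labels do not say whether these libraries are separate cultures. The p-values measure the spread between these libraries. In bulk RNA, fewer cells of a type and less of an RNA per cell cannot be told apart.

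*Pcx* encodes pyruvate carboxylase, which makes oxaloacetate from pyruvate in the mitochondrion. *Me1* and *Me2* encode the cytosolic and the mitochondrial malic enzyme, which turn malate back into pyruvate. The enzymes thus join glycolysis and the tricarboxylic acid cycle, and per the study the malic enzymes also make redox cofactors. Naive ESCs resemble the preimplantation epiblast. When 2i and LIF are withdrawn they pass to a formative state, in which naive transcription factors such as Nanog, Esrrb and Klf4 go down and Otx2, Pou3f1, Fgf5 and the de novo DNA methyltransferases go up.

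The guides to *Me1* and *Pcx* are shown because each places the repressor near an annotated transcript start of its gene. Their matches in GRCm39 are printed with the 3 bases that follow the guide, the PAM, in capitals.
Me1: gagaagcgctgagtcacggCGG
Pcx: aggcaggggccgtcagaggCGG
The *Me1* guide matched chr9:86577958-86577976 on the + strand, while *Me1* lies on the − strand at chr9:86462646-86578104. Its centre lay 3 bp upstream of the start of Me1-208, the nearest of 33 annotated *Me1* transcripts, within exonic untranslated sequence of other *Me1* transcripts. The *Pcx* guide matched chr19:4560559-4560577 on the + strand, also within exonic untranslated sequence. Its centre lay 13 bp downstream of the start of Pcx-226, the nearest of 28 annotated *Pcx* transcripts. *Pcx* itself spans chr19:4559902-4672189 on the + strand, so the guide lies inside the gene.

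The 6 EpiLC libraries held 14967515 to 16896809 estimated counts. A principal component analysis of 15032 genes placed 54.6% of the variance on an axis that set the 3 Neg libraries at −39.47 to −38.82 apart from the 3×KD libraries at 37.67 to 40.72. The share of mitochondrial counts was 0.764% to 0.935% in Neg and 0.967% to 1.26% in 3×KD, and 15948 to 16096 genes in Neg and 16468 to 16555 in 3×KD reached 10 counts. The part of these in the results was not tested. Levels below are CPM (scaled counts relative to library size), listed for replicates 1, 2 and 3. Formative markers set the EpiLC libraries apart from the ESC libraries as the titles say. In the Neg line, *Fgf5* was at 0.532, 0.344 and 0.306 CPM in ESCs and at 33.0, 28.0 and 32.8 CPM in EpiLCs, and *Pou3f1* was at 3.37, 2.75 and 2.7 CPM in ESCs and at 271, 222 and 241 CPM in EpiLCs. *Nanog* was at 993 to 1052 CPM in Neg ESCs and at 33.9, 36.2 and 37.8 CPM in Neg EpiLCs.

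The 3 targets were lower in the 3×KD libraries, with no overlap between the groups. *Pcx* was at 46.7, 49.4 and 56.9 CPM in Neg and at 24.5, 23.6 and 25.6 CPM in 3×KD, and it fell by 1.05 ± 0.067 on the log2 scale (SE; adjusted p = 2.4e-09). *Me1* was at 33.1, 35.7 and 35.5 CPM in Neg and at 17.8, 17.6 and 15.0 CPM in 3×KD, and fell by 1.05 ± 0.064 (adjusted p = 1.5e-09). *Me2* was at 72.8, 70.7 and 69.2 CPM in Neg and at 37.5, 35.1 and 35.3 CPM in 3×KD, and fell by 0.98 ± 0.049 (adjusted p = 1.5e-10). The targets were thus repressed to about the same degree, and a difference between EpiLCs and ESCs was called for none of them (0.09 ± 0.097 for *Pcx*, −0.16 ± 0.086 for *Me1* and −0.03 ± 0.067 for *Me2*). Of 4 genes that start within 50 kb of a target, none was called, but all were scarce, with group means of at most 1.38 CPM. The nearest, *A330041J22Rik*, starts 591 bp from *Me1* and is barely expressed, with means of 0.130 CPM in Neg and 0.104 CPM in 3×KD. *Syt12* near *Pcx* was at 1.06 ± 0.36 and *Prss35* near *Me1* at −0.83 ± 0.27 on the log2 scale. At such levels the lack of a call does not show that neighbours were unchanged.

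A gene is called higher or lower where edgeR's quasi-likelihood test gave a Benjamini-Hochberg adjusted p under 0.01 and the log2 fold change exceeded 0.58 in size. On that rule 2005 genes were called higher in 3×KD (7.88% of those tested) and 1362 lower (5.35%). Beyond a log2 fold change of 1 there were 972 higher and 454 lower, and beyond 2 there were 130 higher and 84 lower. The 3×KD and Neg libraries did not overlap for 3359 of the 3367 called genes, against 47.2% of all genes tested. The median log2 fold change of all genes tested was 0.032. At adjusted p under 0.01 with no fold limit, 3648 of the 25446 genes tested were higher and 3961 lower. Counts at an unadjusted p under 0.05 are given below without the share over all genes. That share is large, since even at adjusted p under 0.05 with no fold limit 9694 of the 25446 genes passed (4835 higher, 4859 lower). Such a count in a list therefore does not by itself set the list apart from all genes. Of 3796 long noncoding RNAs tested, 177 were called higher and 105 lower.

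**Figure D1:**
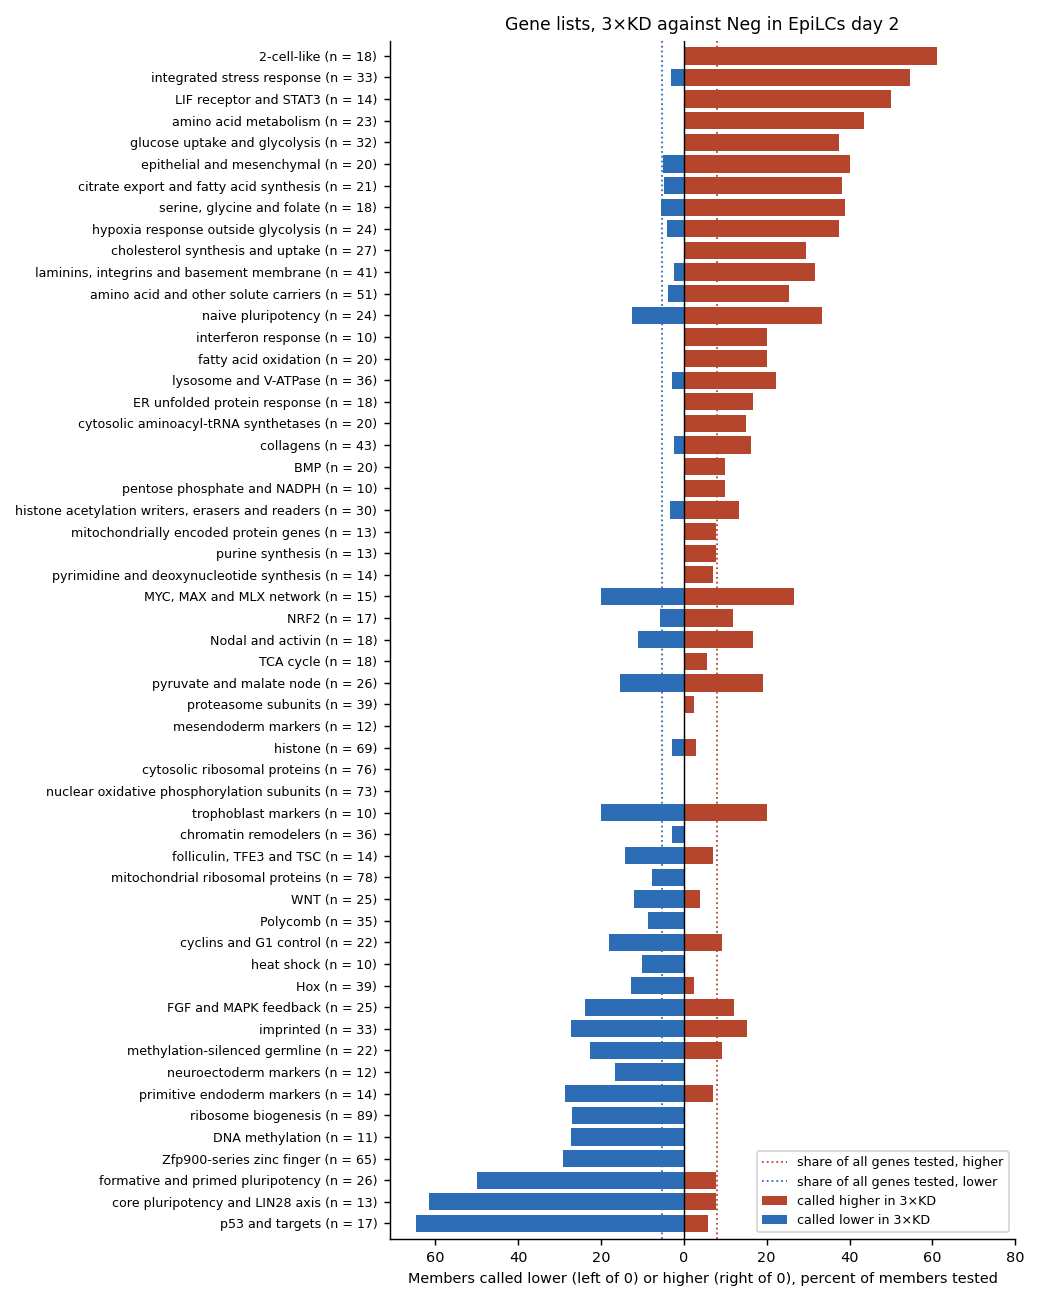
Share of the tested members of each of 55 gene lists called higher (red, right of 0) or lower (blue, left of 0) in 3×KD against Neg EpiLCs, in percent, with the number tested in brackets. Dotted lines mark the share of all genes tested, 7.88% higher and 5.35% lower. The 2-cell-like list (61.1% higher) and the integrated stress response list (54.5% higher) stand at the top, and the p53 list (64.7% lower), the core pluripotency list (61.5% lower) and the formative list (50% lower) at the bottom.

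More naive pluripotency genes were called higher than lower in 3×KD EpiLCs. Of 24 tested members, 8 were called higher, 3 lower and 13 neither, with a median log2 fold change of 0.41. *Nanog*, a core factor of naive cells, rose from 33.9, 36.2 and 37.8 CPM to 72.9, 75.9 and 77.9 CPM (log2 fold change 1.07 ± 0.044, adjusted p = 2.3e-11). *Esrrb*, an orphan nuclear receptor of the naive network, rose from 64.3, 66.3 and 62.8 CPM to 124, 119 and 116 CPM (0.89 ± 0.036). *Fbxo15*, an Oct4 target, rose from 80.9, 84.5 and 85.9 CPM to 170, 164 and 158 CPM (0.97 ± 0.039). *Dppa3*, which encodes the maternal factor Stella, also rose but was scarce, at 0.604 to 0.632 CPM in Neg and 1.30 to 1.75 CPM in 3×KD (1.28 ± 0.22). *Klf4* (0.75), *Kit* (0.83) and *Tfcp2l1* (0.59) were higher too. These genes stayed far below their ESC levels in both groups. *Zfp42*, better known as Rex1, was at 48.2, 47.4 and 48.2 CPM in Neg and 47.2, 48.1 and 53.7 CPM in 3×KD (log2 fold change 0.05), and *Klf2* was also near 0 (0.05). Other members of the list decreased. *Fgf4*, the main ligand of FGF signalling in these cells, fell from 247, 243 and 247 CPM to 109, 111.2 and 112 CPM (−1.15 ± 0.032, adjusted p = 6.3e-13), and *Nr0b1* (−0.84) and *Tdh* (−0.68) fell as well. With offsets for transcript length 5 members of the list were called higher.

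The same list moved otherwise in ESCs, where 3 members were called higher and 10 lower in 3×KD, with a median of −0.42. Across all genes the change was called in ESCs for 8.5% (higher) and 6.78% (lower). The difference between the states, the EpiLC change minus the ESC change, was called (adjusted p under 0.01 and more than 1 on the log2 scale) for 2.2% of all genes and for 8 of the 24 members, of which 7 were more positive in EpiLCs. *Zfp42* fell in ESCs from 528, 518 and 501 CPM to 226, 212 and 206 CPM (−1.27), a difference of 1.32 ± 0.067 between the states. *Esrrb* (difference 1.24), *Klf4* (1.40), *Dppa3* (2.09) and *Fbxo15* (1.08) differed the same way, and *Fgf4* the other way (−1.69 ± 0.046, against an ESC change of 0.54).

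**Figure D2:**
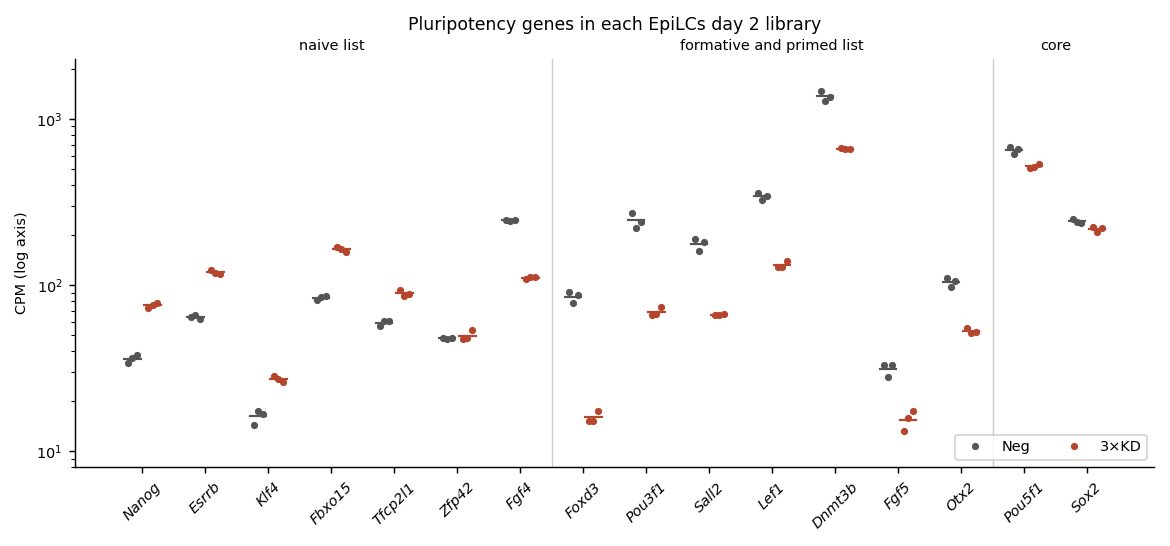
CPM on a log axis of 16 pluripotency genes in the 3 Neg (grey) and 3 3×KD (red) EpiLC libraries, with a bar at each group's mean. Points of the groups lie apart for each gene but *Zfp42*; *Nanog*, *Esrrb*, *Klf4*, *Fbxo15* and *Tfcp2l1* are higher in 3×KD, and *Fgf4* and the 7 formative genes are lower.

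Many formative and primed genes were called lower. Of 26 tested members, 13 were called lower, 2 higher and 11 neither, with a median of −0.62. *Foxd3*, a forkhead repressor needed in the epiblast, fell from 90.2, 78.4 and 87.0 CPM to 15.1, 15.3 and 17.5 CPM (−2.41 ± 0.075, adjusted p = 1.4e-12). *Pou3f1*, the POU factor Oct6, fell from 271, 222 and 241 CPM to 66.3, 67.1 and 73.5 CPM (−1.83 ± 0.063). The Spalt-like zinc finger genes *Sall3* (−1.65) and *Sall2* (−1.42) fell, and *Lef1*, a nuclear effector of WNT signalling, fell from 358, 324 and 345 CPM to 129, 128 and 140 CPM (−1.37). *Dnmt3b*, the de novo methyltransferase and one of the most abundant transcripts called lower, fell from 1466, 1273 and 1363 CPM to 669, 660 and 660 CPM (−1.04 ± 0.045). *Fgf5*, the classical marker of the state, fell from 33.0, 28.0 and 32.8 CPM to 13.3, 15.9 and 17.4 CPM (−1.01 ± 0.12). *Otx2*, the factor that drives exit from the naive state, fell from 110, 97.5 and 106 CPM to 55.2, 51.3 and 52.4 CPM (−0.98 ± 0.066). The 3×KD EpiLCs nevertheless held *Fgf5*, *Otx2*, *Pou3f1* and *Dnmt3b* well above the levels of 3×KD ESCs, where *Fgf5* was at 0.0653 to 0.369 CPM and *Otx2* at 0.392 to 0.921 CPM. The 2 members called higher were the keratin gene *Krt18* (1.2) and *Igfbp2* (0.67), and *Tcf15* (0.01), *Etv5* (0.11) and *Sox11* (0.06) were near 0. *Pou3f1* and *Sall2* were not called in ESCs, and their changes differed between the states by −2.17 and −1.65. Of the 26 members, however, 8 were called lower and 4 higher in ESCs, with a median of −0.20. At the limit for a difference 4 members were more negative and 2 more positive in EpiLCs.

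Genes of the core network and of the LIN28 axis fell in part. Of 13 tested, 8 were called lower and 1 higher, with a median of −0.68. *Zfp281*, a zinc finger partner of the core factors, fell from 354, 349 and 370 CPM to 181, 175 and 171 CPM (−1.03 ± 0.035), and *Sall1* fell from 547, 524 and 547 CPM to 270, 270 and 267 CPM (−1.0 ± 0.036). *Lin28a* (−0.69) and *Lin28b* (−0.76), which encode inhibitors of let-7 maturation, and *Zscan10* (−0.93) fell too. The exception was *Tdgf1*, the Nodal co-receptor Cripto, which rose from 387, 433 and 408 CPM to 772, 807 and 765 CPM (0.93 ± 0.045). *Pou5f1*, which encodes Oct4, was at 676, 612 and 663 CPM in Neg and 505, 517 and 536 CPM in 3×KD (−0.33 ± 0.038), and *Sox2* was at 237 to 250 CPM in Neg and 209 to 223 CPM in 3×KD (−0.16 ± 0.038). Neither reached the fold limit. Of the 13 genes, 6 were called lower and 1 higher in ESCs, with a median of −0.42. A difference between the states was called for 0 of them.

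The 2-cell-like list, genes of the totipotent-like state that a few ESCs enter, was called higher in 11 of 18 members and lower in 0, with a median of 0.90 by edgeR's test. At an unadjusted p under 0.05, 17 members were higher and 0 lower, and DESeq2 called 11 higher and 0 lower. *Zscan4b* rose from 21, 26.6 and 22.1 CPM to 79.0, 82.3 and 75.6 CPM (1.76 ± 0.095), *Zscan4e* from 117, 96.2 and 113 CPM to 275, 266 and 278 CPM (1.33 ± 0.055) and *Sp110* by 1.27. The *Zscan4* and *Usp17l* copies are near-identical, so reads may be split among them. Summed over the list, the level was 764 to 823 CPM in Neg and 1644 to 1686 CPM in 3×KD. In ESCs 1 member was called higher and 3 lower, and 7 members were more positive in EpiLCs at the limit for a difference.

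Among the signalling lists was that of LIF and STAT3. Of its 14 members, 7 were called higher and 0 lower by edgeR's test and by DESeq2, with a median of 0.46. At an unadjusted p under 0.05, 9 were higher and 3 lower. The kinase gene *Pim1* rose from 71.3, 75.5 and 74.3 CPM to 188, 183 and 189 CPM (1.34 ± 0.049). *Socs3*, the feedback inhibitor of the pathway, rose by 1.11 on the log2 scale, *Stat3* itself from 36.5, 35.6 and 33.4 CPM to 64.7, 59.6 and 58.7 CPM (0.79 ± 0.055) and *Jak2* by 0.78. The receptor subunits were not called, with −0.36 for *Lifr* and 0.33 for *Il6st*. *Socs3* was not called with offsets for transcript length (0.47).

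In the FGF and MAPK list 3 of 25 members were called higher and 6 lower. The immediate early gene *Egr1* fell from 43.4, 37.1 and 43.5 CPM to 15.0, 14.8 and 15.7 CPM (−1.44 ± 0.085). The ligand gene *Fgf15* fell from 23.3, 20.3 and 18.7 CPM to 7.69, 8.31 and 8.61 CPM (−1.34 ± 0.12), and since it was called higher in ESCs (1.52) the states differed by −2.86. The Sprouty inhibitors *Spry2* (−0.80) and *Spry4* (−0.78) fell, while *Ier3* (2.05), *Fgfr3* (1.07) and the ERK phosphatase gene *Dusp6* (0.62) rose. *Dusp6* went from 180, 179 and 182 CPM to 270, 284 and 278 CPM and was called lower in ESCs (−0.94). With offsets for transcript length only 1 member of this list was called higher.

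Some WNT, Nodal and BMP genes were called as well. In the WNT list 1 of 25 was called higher, *Rnf43* (1.65), which was scarce, at 0.308 to 0.604 CPM in Neg and 1.24 to 1.69 CPM in 3×KD. It was not called with offsets for transcript length. The 3 called lower included the antagonist *Dkk1* (−2.99, at 1.2 to 1.54 CPM in Neg and 0.124 to 0.256 CPM in 3×KD) and the ligand *Wnt8a* (−1.75). *Axin2*, a common WNT target, was at 24.5, 26.0 and 27.1 CPM in Neg and 33.4, 29 and 27.2 CPM in 3×KD (0.21). Among 18 Nodal and activin genes 3 were called higher and 2 lower. The activin subunit gene *Inhbb* rose by 1.82 and the convertase gene *Pcsk6* by 0.93, while *Lefty1*, an inhibitor and target of Nodal, fell from 290, 272 and 274 CPM to 172, 170 and 159 CPM (−0.74 ± 0.039), and *Gdf3* fell by 0.72. Of 20 BMP genes, *Bmp7* (1.76) and *Smad6* (0.79) were called higher and 0 lower by edgeR's test or by DESeq2. At an unadjusted p under 0.05, 7 BMP genes were higher and 2 lower.

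Markers of other lineages differed in level. Mesendoderm markers summed to 25 to 26.7 CPM in Neg and 25.6 to 27.9 CPM in 3×KD, with 0 of 12 called in either direction by edgeR's test or DESeq2, and 1 higher and 0 lower at an unadjusted p under 0.05. *T* was at 0.126 to 0.185 CPM in Neg and 0.0624 to 0.124 CPM in 3×KD. Neuroectoderm markers summed to 146 to 149 CPM in Neg and 79.8 to 84.5 CPM in 3×KD, and 2 of 12 were called lower. They were *Sox1*, an early neural SoxB factor, which fell from 65.2, 66.9 and 63.6 CPM to 20.2, 20.3 and 24.2 CPM (−1.60 ± 0.090, and −0.15 in ESCs), and *Nes* (−0.73). *Hes5* and *Six3* were each below 1 CPM in all 6 libraries. Primitive endoderm markers summed to 119 to 123 CPM in Neg and 165 to 212 CPM in 3×KD, most of it *Rhox5*, which rose from 83.2, 79.4 and 81.7 CPM to 135, 142 and 179 CPM (0.90 ± 0.076). *Gata6*, a determinant of that lineage, fell from 8.99, 8.72 and 10.9 CPM to 4.47, 4.03 and 5.56 CPM (−1.02 ± 0.13) and was called higher in ESCs (0.78). *Sox7* and *Cubn* were called lower at under 5 CPM, but only 1 of the list's 4 lower calls remained without Neg replicate 2, and 2 remained without 3×KD replicate 1 or 3×KD replicate 2. *Afp* was at 0 to 0.403 CPM. Trophoblast markers summed to 14.5 to 16.9 CPM in Neg and 21.9 to 25.3 CPM in 3×KD. Of these 10, *Krt7* (1.44) and *Tfap2c* (1.21) rose, and *Gata3* (−1.62) and *Tfap2a* (−0.69) were called lower, but neither of the latter was called without Neg replicate 3, without 3×KD replicate 1 or with DESeq2, and 1 of them was called without Neg replicate 1 or without 3×KD replicate 3. *Cdx2* and *Elf5* stayed below 1 CPM. What part these markers have in the other results was not tested.

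Among the DNA methylation genes 3 of 11 were called lower, *Dnmt3b*, *Dnmt3l* (−0.73, from 824, 794 and 820 CPM to 491, 496 and 480 CPM) and *Tdg* (−0.63). The list had 0 called higher by edgeR's test and by DESeq2. At an unadjusted p under 0.05, 4 members were higher and 6 lower. *Dnmt3a* was at 1152, 1081 and 1110 CPM in Neg and 817, 806 and 848 CPM in 3×KD (−0.44), *Dnmt1* was near 0 (0.01) and *Tet1* was at 0.22 on the log2 scale. Of 22 germline genes known to be silenced by methylation, 5 were called lower and 2 higher. *Dazl*, a germ cell RNA-binding protein gene, fell from 170, 171 and 184 CPM to 82.3, 83.9 and 80.7 CPM (−1.09 ± 0.046), with *Asz1* (−1.11) and *Sycp1* (−1.10), and *Mael* (0.73) and *Tuba3a* (0.65) rose.

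Imprinted genes, which are expressed from one parental copy, moved in both directions. Of 33 tested, 5 were called higher and 9 lower, with a median of −0.29. *Peg10*, a retrotransposon-derived gene, rose from 544, 586 and 602 CPM to 1424, 1425 and 1370 CPM (1.28 ± 0.044) and was near 0 in ESCs (0.02), so that the states differed by 1.27. Its neighbour *Sgce* rose by 1.32 and the growth factor gene *Igf2* from 2.89, 1.81 and 1.39 CPM to 7.44, 6.78 and 7.62 CPM (1.83 ± 0.21). *Magel2* fell from 37.6, 26.8 and 35.3 CPM to 6.89, 6.84 and 6.80 CPM (−2.28 ± 0.13). Of the noncoding RNAs of the *Dlk1* and *Meg3* domain, *Mirg* fell from 91.7, 94.3 and 86.8 CPM to 32.7, 37.2 and 35.1 CPM (−1.38 ± 0.081) and *Rian* from 708, 670 and 686 CPM to 365, 383 and 383 CPM (−0.87 ± 0.041). *H19* (−0.84) and *Cdkn1c* (−0.84) fell in EpiLCs and were called higher in ESCs (1.09 and 0.60), differences of −1.93 and −1.44.

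Part of the genes of glucose uptake and glycolysis were called higher. Of 32 tested, 12 were called higher and 0 lower by edgeR's test and by DESeq2 (25 higher and 2 lower at an unadjusted p under 0.05), with a median of 0.53. The aldolase gene *Aldoc* rose from 4.62, 5.64 and 6.32 CPM to 25.4, 22.2 and 23.0 CPM (2.09 ± 0.10), the enolase gene *Eno2* by 1.57, the phosphofructokinase gene *Pfkp* from 105, 121 and 114 CPM to 238, 248 and 245 CPM (1.11 ± 0.044) and the glucose transporter gene *Slc2a3* from 706, 792 and 769 CPM to 1515, 1495 and 1475 CPM (0.98 ± 0.042). *Hk1*, a hexokinase, rose by 0.96. *Aldoa*, *Pgk1* and *Gpi1* were among the most abundant genes called higher, at 1552 to 1610, 1009 to 1068 and 541 to 567 CPM in Neg and at 2432 to 2581, 1789 to 1837 and 885 to 916 CPM in 3×KD. Other steps stayed below the fold limit, with 0.09 for *Ldha*, 0.12 for *Pgam1* and 0.19 for *Pfkl*. *Txnip*, which encodes an inhibitor of glucose uptake and a target of the glucose sensor Mondo and ChREBP, rose from 941, 1019 and 958 CPM to 2133, 2040 and 2083 CPM (1.1 ± 0.048), and *Arrdc4*, which answers to the same factors, by 0.83. Of the 32 listed genes, 21 were called higher and 0 lower in ESCs by edgeR's test, with a median of 0.66. A difference between the states was called for 1 of them.

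In the list on pyruvate and malate, which holds the 3 targets, 5 of 26 were called higher and 4 lower. The fourth gene called lower was the dicarboxylate carrier *Slc25a10* (−0.59), which was just past the fold limit. *Pck2*, the mitochondrial PEP carboxykinase, rose from 13.4, 15.9 and 15.0 CPM to 51.1, 48.5 and 48.1 CPM (1.74 ± 0.070). *Pck1*, its cytosolic counterpart, was scarce at 0 to 0.123 CPM in Neg and 0.384 to 0.687 CPM in 3×KD. The kinase gene *Pdk4*, which inhibits pyruvate dehydrogenase, rose from 2.59, 3.15 and 3.79 CPM to 10.7, 10.1 and 10.9 CPM (1.73 ± 0.12), with *Pdk2* (1.00). *Slc25a1*, the citrate carrier, rose from 74.7, 74.1 and 78.3 CPM to 162, 166 and 162 CPM (1.11 ± 0.044) and lies on chromosome 16, which is described further on. In the tricarboxylic acid cycle 1 of 18 genes was called, *Idh2*, the mitochondrial NADP-dependent isocitrate dehydrogenase, from 14.2, 15.5 and 13 CPM to 48.9, 47.2 and 42.4 CPM (1.70 ± 0.071). It rose in ESCs as well (1.09).

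The integrated stress response is the program run by the transcription factor ATF4, which has amino acid and serine genes among its targets. Of 33 genes on the stress response list, 18 were called higher and 1 lower, with a median of 0.77, and in ESCs 19 were called higher and 2 lower, with a median of 0.75. *Nupr1*, a stress-induced chromatin protein, rose from 4.50, 6.04 and 5.75 CPM to 24.2, 22.6 and 28.0 CPM (2.20 ± 0.11) and the pseudokinase gene *Trib3* from 11.2, 11.4 and 14.0 CPM to 40.6, 42.7 and 40.5 CPM (1.76 ± 0.081). *Vldlr* (1.42) and the neutral amino acid transporter gene *Slc1a4* (1.37) followed. The factor gene *Ddit3*, also named Chop, was at 17.9, 19.5 and 19.3 CPM in Neg and 47.8, 43.6 and 49.6 CPM in 3×KD (1.32), and *Atf4* itself was at 169, 153 and 161 CPM in Neg and 186, 180 and 179 CPM in 3×KD (0.17). The member called lower was *Slc38a2*, a transporter of small neutral amino acids, which fell from 732, 665 and 712 CPM to 336, 321 and 314 CPM (−1.12 ± 0.049). *Sesn2* (−0.53) and *Ppp1r15a* (−0.36) were below the fold limit.

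Of 23 genes of amino acid metabolism 10 were called higher and 0 lower by edgeR's test and by DESeq2. At an unadjusted p under 0.05, 16 were higher and 3 lower. *Gpt2*, the mitochondrial alanine transaminase, rose from 21.3, 22.5 and 22.1 CPM to 61.7, 56.9 and 55.1 CPM (1.40 ± 0.055), and the proline synthesis gene *Pycr1* by 1.35. *Asns*, asparagine synthetase, rose from 101, 104 and 102 CPM to 232, 220 and 225 CPM (1.14 ± 0.032) in EpiLCs and was at −0.25 in ESCs, and the branched-chain transaminase gene *Bcat1* rose from 78.0, 80.9 and 79.7 CPM to 181, 185 and 189 CPM (1.22 ± 0.034) against 0.06 in ESCs. The states thus differed by 1.39 for *Asns* and 1.16 for *Bcat1*, while for *Gpt2* no difference was called (0.11 ± 0.076, adjusted p = 0.42). In the serine, glycine and folate list 7 of 18 were called higher and 1 lower. The 3 enzymes of serine synthesis were among them: *Phgdh* rose from 54.9, 58.6 and 56.6 CPM to 125, 127 and 124 CPM (1.15 ± 0.045), *Psph* by 1.01 and *Psat1* by 0.77. *Mthfd2*, of the mitochondrial folate pathway, rose from 70.3, 74.1 and 72.8 CPM to 126, 117 and 120 CPM (0.74). The member called lower was *Tdh*, threonine dehydrogenase. Among 51 solute carriers 13 were called higher and 2 lower. *Slc7a5*, the large neutral amino acid transporter LAT1, rose from 131, 134 and 137 CPM to 313, 305 and 300 CPM (1.19 ± 0.038). Of 20 cytosolic aminoacyl-tRNA synthetases *Sars* (0.85), *Vars* (0.66) and *Cars* (0.60) were called higher. *Vars* was not called with offsets for transcript length (0.49), nor *Cars* without 3×KD replicate 2 (0.58).

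**Figure D3:**
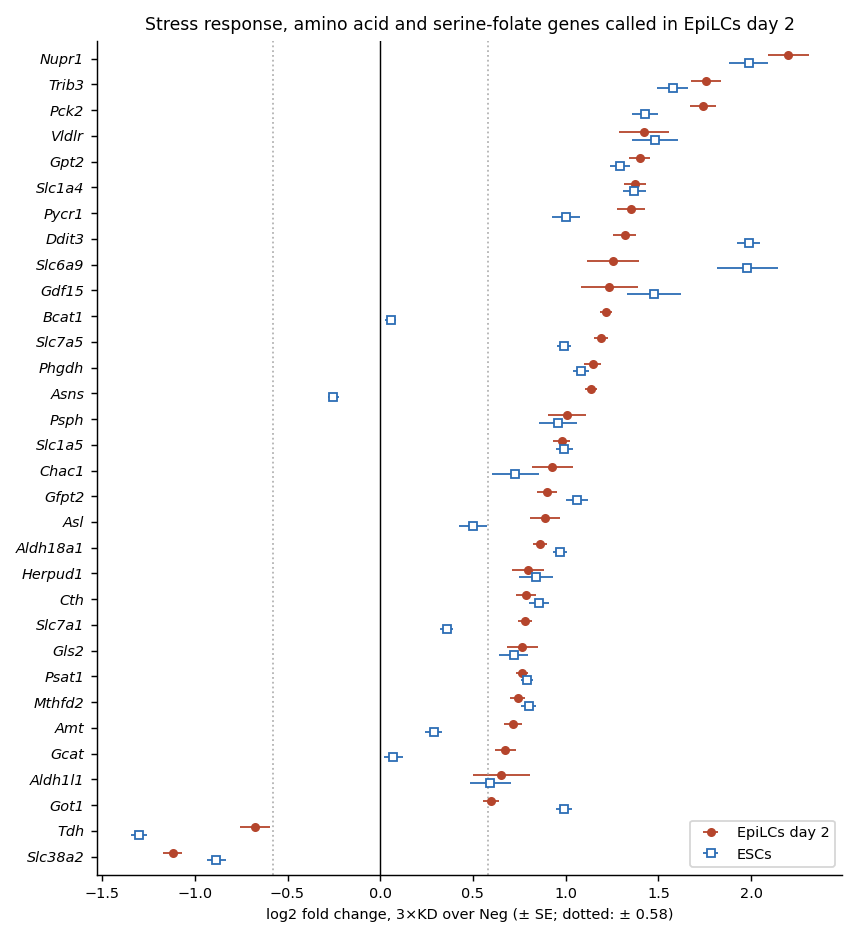
Log2 fold change of 3×KD over Neg (± SE) of the members of the stress response, amino acid and serine-folate lists called in EpiLCs, in EpiLCs (red circles) and ESCs (blue squares); dotted lines mark ± 0.58. *Asns* and *Bcat1* are above 1 in EpiLCs and at −0.25 and 0.06 in ESCs, while *Slc38a2* and *Tdh* are below 0 in both.

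Of 18 genes of the unfolded protein response of the endoplasmic reticulum, 3 were called higher, *Herpud1* (0.80), *Hsp90b1* (0.72) and *Pdia6* (0.59). At adjusted p under 0.01 with no fold limit, 11 were higher and 1 lower. *Hsp90b1* was not called with offsets for transcript length (0.48). *Pdia6* was not called with the 6 EpiLC libraries alone, without Neg replicate 2 or without 3×KD replicate 1. Of 17 NRF2 targets, *Nqo1* (0.96) and *Gsta4* (0.63) were called higher and *Gclc*, the catalytic subunit of glutathione synthesis, lower (from 134, 126 and 132 CPM to 84.1, 82.0 and 76.7 CPM). Of 10 heat shock genes only *Hsph1* was called, which fell from 297, 273 and 297 CPM to 148, 152 and 151 CPM (−0.94 ± 0.039). In the interferon list *Stat2* (1.07) and *Irf7* (1.04) were called among 10.

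Hypoxia-responsive genes outside glycolysis were called higher in 9 of 24 members and lower in 1. *Ndrg1* rose from 34.0, 44.4 and 33.7 CPM to 134, 140 and 127 CPM (1.84 ± 0.082), the oxidoreductase gene *Ero1a* from 66.8, 68.6 and 70.8 CPM to 219, 223 and 204 CPM (1.65 ± 0.044) and *Vegfa* from 18.6, 20.2 and 20.1 CPM to 54.0, 50.2 and 51.8 CPM (1.41 ± 0.057). *Bhlhe40* (1.26) and *P4ha1* (1.09) rose as well. The demethylase gene *Kdm3a* fell (−0.66). *Adm* rose by 0.70 in EpiLCs and by 2.77 in ESCs, a difference of −2.07. Of the 24 members, 13 were called higher and 0 lower in ESCs by edgeR's test, and a difference between the states was called for 1.

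Lipid genes were called mostly upward. Of 27 genes of cholesterol synthesis and uptake 8 were called higher, led by *Tm7sf2* (0.97) and *Dhcr7* (0.89, from 66.8, 70.9 and 67.4 CPM to 131, 127 and 124 CPM), with *Msmo1* (0.75) and *Insig1* (0.70), but without Neg replicate 3 only 4 were. Of the 27, 13 were called higher and 0 lower in ESCs by edgeR's test, and a difference between the states was called for 1. Of 21 genes of citrate export and fatty acid synthesis 8 were called higher and 1 lower. *Mlycd*, malonyl-CoA decarboxylase, rose from 68.7, 69.8 and 71.4 CPM to 154, 161 and 150 CPM (1.15 ± 0.054), and the desaturase genes *Fads1* (0.96) and *Scd1* (0.89) and the acetyl-CoA synthetase gene *Acss2* (0.97) rose. *Acsl4*, which activates polyunsaturated fatty acids, fell from 243, 237 and 235 CPM to 155, 152 and 155 CPM (−0.63 ± 0.032) and was at 0.55 in ESCs. In fatty acid oxidation 4 of 20 were called higher, with *Acads* (1.19, from 15.6, 16.1 and 15.5 CPM to 35.6, 36.6 and 35.6 CPM) first and the carnitine palmitoyltransferase gene *Cpt1a* at 0.71, and 2 were with offsets for transcript length.

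Few genes of the respiratory chain were called. Of 73 nuclear-encoded subunits 0 were called in either direction by edgeR's test or DESeq2, while 15 were higher and 11 lower at an unadjusted p under 0.05. Of 13 mitochondrially encoded genes *mt-Nd6* was called higher (1.03). Genes of the mitochondrial ribosome were called lower in 6 of 78 and 39 were lower at adjusted p under 0.01 with no fold limit, with a median of −0.26. The most changed, *Mrpl46*, fell from 42.4, 39.4 and 38.6 CPM to 22.6, 24.4 and 24.2 CPM (−0.76). With scaling by library size alone 2 of the 78 were called. Of 76 cytosolic ribosomal protein genes 0 were called by edgeR's test or DESeq2, and their median was 0.06, with 20 higher and 9 lower at an unadjusted p under 0.05. Ribosome biogenesis factors were lower in small steps, since 24 of 89 were called lower, 77 were lower at adjusted p under 0.01 with no fold limit, and the median was −0.42. *Nifk* fell from 106, 92.1 and 103 CPM to 52.4, 50.6 and 54.0 CPM (−0.94), *Utp20* by 0.91, *Rrp1b* by 0.88, *Nop58* by 0.84 and *Ddx31* by 0.83. *Mycn*, a member of the MYC family, fell from 147, 133 and 148 CPM to 41.9, 38.9 and 41.3 CPM (−1.81 ± 0.049, adjusted p = 6.3e-13), and *Mxd4* fell by 1.01. *Myc* was at 52.7, 55.1 and 56.9 CPM in Neg and 67.9, 64.0 and 67.9 CPM in 3×KD (0.28) in EpiLCs and fell in ESCs (−2.10), a difference of 2.38.

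Targets of p53 were lower in 3×KD EpiLCs. Of 17 tested members 11 were called lower and 1 higher, with a median of −0.75. *Ccng1*, cyclin G1, fell from 438, 385 and 420 CPM to 190, 180 and 187 CPM (−1.16 ± 0.043, adjusted p = 7.3e-12). *Pmaip1*, the BH3-only gene Noxa, fell from 52.6, 49.0 and 54.2 CPM to 27.7, 25.7 and 26.9 CPM (−0.96 ± 0.057) and *Btg2*, an antiproliferative gene, from 64.2, 62.9 and 60.5 CPM to 33.8, 33.9 and 32.3 CPM (−0.91 ± 0.051). *Phlda3* (−0.86), which inhibits Akt, and *Trp53inp1* (−0.81) followed. The cell cycle inhibitor p21, *Cdkn1a*, was at 105, 90.7 and 95.3 CPM in Neg and 55.7, 57.4 and 59.9 CPM in 3×KD (−0.75), and *Mdm2*, the ubiquitin ligase for p53, at 222, 210 and 218 CPM in Neg and 142, 137 and 137 CPM in 3×KD (−0.64). *Sesn1* rose (0.92), and *Trp53* itself was at 297, 272 and 290 CPM in Neg and 247, 229 and 234 CPM in 3×KD (−0.28). In ESCs 1 member was called, *Pmaip1* (0.68), and the median was 0.01. Among the members 12 had a more negative change in EpiLCs than in ESCs at adjusted p under 0.01, a count without the share over all genes. Of these, 3 passed the limit of 1, *Pmaip1* (−1.63 ± 0.086), *Cdkn1a* (−1.03) and *Plk2* (−1.01).

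**Figure D4:**
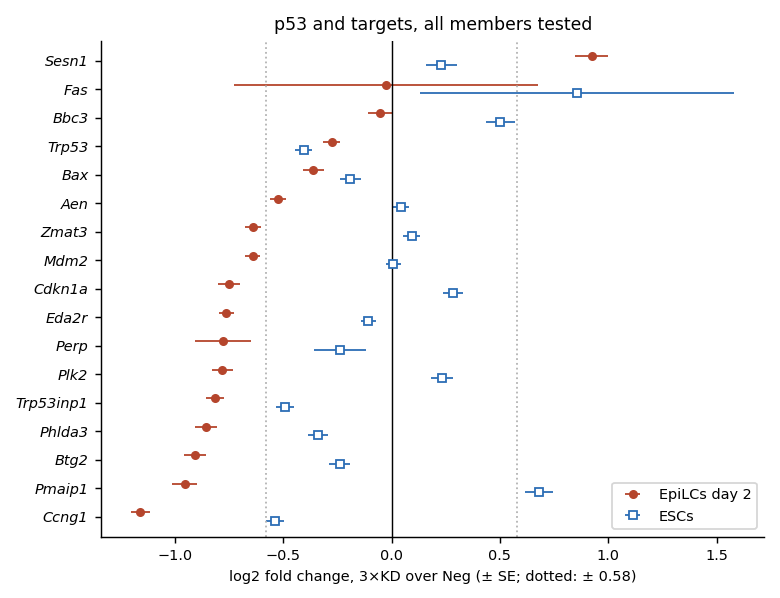
Log2 fold change of 3×KD over Neg (± SE) of the 17 tested members of the p53 list in EpiLCs (red circles) and ESCs (blue squares); dotted lines mark ± 0.58. In EpiLCs 11 members lie below −0.58, and in ESCs none does.

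Among cyclins and other genes of G1 control 2 of 22 were called higher and 4 lower. *Ccnd1*, cyclin D1, fell from 82.1, 83.3 and 83.9 CPM to 26.6, 24.9 and 22.8 CPM (−1.75 ± 0.063) and *Ccnd2* from 24.1, 24.2 and 22.7 CPM to 15.0, 13 and 14.7 CPM (−0.73), while the inhibitor gene *Cdkn1b* rose from 35.7, 34.7 and 36.5 CPM to 60.5, 54.2 and 55.1 CPM (0.67). The other gene called higher, *Cdkn2c* (0.68), was not called with DESeq2, nor when Neg replicate 1, Neg replicate 2, 3×KD replicate 1 or 3×KD replicate 3 was left out. *Rb1* was called lower (−0.61), but with offsets for transcript length its value was 0.0013. Around the exit regulator folliculin, *Tfe3* fell from 248, 220 and 232 CPM to 106, 110.7 and 104 CPM (−1.12 ± 0.045) and the Rag GTPase gene *Rragd* by 1.04, and *Tfeb* rose by 0.72, out of 14 tested. With offsets for transcript length *Tfeb* was not called (0.50).

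Genes of the lysosome were called higher in 8 of 36 members and lower in 1. *Neu1* (1.00) and the saposin precursor gene *Psap* (0.71) rose, and *Atp6v0a2* fell (−0.70). Of 39 proteasome subunits 1 was called, *Psmb9* (1.1), at 1.17 to 1.41 CPM in Neg and 2.75 to 2.94 CPM in 3×KD. With offsets for transcript length it was not called (0.31). At adjusted p under 0.01 with no fold limit, 18 of the 39 proteasome subunits were lower and 5 higher, and the median of the list was −0.11.

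Part of the adhesion and matrix genes were called higher. Among laminins, integrins and basement membrane genes 13 of 41 were called higher and 1 lower, with a median of 0.51. *Spp1*, osteopontin, rose from 33.2, 31.6 and 33.4 CPM to 85.6, 77.9 and 80.8 CPM (1.31 ± 0.043), the nidogen gene *Nid1* from 12.1, 14.0 and 13.5 CPM to 35.4, 30.2 and 31.5 CPM (1.30 ± 0.067), *Npnt* by 1.44 and *Lamb2* by 1.16. *Lamb3* had the highest fold (2.91) at under 1.1 CPM in every library. *Lama1* fell (−0.92). Collagens were called higher in 7 of 43, led by *Col26a1* (1.69), *Col6a2* (1.58), *Col13a1* (1.47) and *Col5a3* (1.1), all below 6 CPM, but without Neg replicate 1 only 3 were, without Neg replicate 3 only 4, and with offsets for transcript length 2. Of 20 epithelial and mesenchymal genes, 8 were called higher. They included the keratins *Krt8* (1.43, from 5.05, 5.17 and 5.69 CPM to 13.4, 13.7 and 15.7 CPM) and *Krt18* (1.2), P-cadherin *Cdh3* (1.03) and *Snai2* (1.11, chromosome 16). *Zeb2* was called lower (−0.79), with the opposite sign under offsets for transcript length (0.99).

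Few chromatin genes were called. Of 35 Polycomb genes 3 were called lower, *Cbx8* (−1.08), *Bcor* (−1.03, from 192, 188 and 194 CPM to 95.2, 96.4 and 88.9 CPM) and *Rybp* (−0.63). The Polycomb list had 0 called higher by edgeR's test or DESeq2. At an unadjusted p under 0.05, 7 of its members were higher and 15 lower, and its median was −0.11. Of 36 remodeler subunits *Arid1a* was called, which fell from 990, 960 and 1006 CPM to 648, 637 and 594 CPM (−0.65). Smaller decreases were common in that list. At adjusted p under 0.01 with no fold limit, 21 of the 36 were lower and 2 higher, against 3961 lower of the 25446 genes tested. The median of the remodelers was −0.19. Among 30 histone acetylation genes *Brd2* fell (−0.69, from 742, 708 and 745 CPM to 453, 455 and 452 CPM), and *Sirt4* (1.44), *Hdac7* (1.33), *Hdac11* (0.84) and *Hdac5* (0.66) rose. Of 69 histone genes, whose sequences are near-identical, 2 were called in each direction, and *H2ac19* was at 38.6, 0 and 97.4 CPM across the 3×KD libraries. Homeobox genes of the Hox clusters were called lower in 5 of 39 and higher in 1, *Hoxd1* (1.15). *Hoxa5* fell from 11.4, 14.4 and 14.2 CPM to 5.34, 4.41 and 5.68 CPM (−1.37 ± 0.15), *Hoxa7* by 1.39 and *Hoxb1* by 1.19, and *Hoxa2* and *Hoxa4* were called at under 2 CPM. Without Neg replicate 3 the list had 3 lower calls.

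The numbered zinc finger genes *Zfp900* to *Zfp999*, mostly members of clustered families, were called lower in 19 of 65 and higher in 0 by edgeR's test and by DESeq2. At an unadjusted p under 0.05, 48 were lower and 2 higher, and the median was −0.38. *Zfp936* fell from 181, 159 and 173 CPM to 70.9, 69.4 and 69.4 CPM (−1.29 ± 0.058), *Zfp997* from 137, 132 and 141 CPM to 58.7, 57.0 and 53.2 CPM (−1.28 ± 0.050), and *Zfp959* by 1.31. In ESCs 33 of the 65 were called lower and the median was −0.60. Copies of such genes share sequence, so the split of reads among them is uncertain.

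Among genes chosen for the size of their change, the neural factor gene *Olig3* fell from 4.31, 2.48 and 3.67 CPM to 0.0620, 0.320 and 0.0624 CPM (−4.50 ± 0.50). *Bcl11a*, a zinc finger repressor of the neural and blood lineages, fell from 24.0, 22.9 and 22.6 CPM to 4.16, 4.47 and 4.06 CPM (−2.45 ± 0.12) and was below 1 CPM in all ESC libraries. *Fat4*, an atypical cadherin (−2.92), *Inka2* (−2.45) and the imprinted noncoding RNA *Peg13* (−2.65, from 5.73, 5.10 and 6.19 CPM to 0.744, 0.767 and 1.19 CPM) also fell. *Derpc* was called lower, though its Neg libraries were at 7.27, 54.9 and 58 CPM. On the other side, *Chrd*, the BMP antagonist chordin on chromosome 16, rose from 0.924, 1.01 and 0.758 CPM to 5.09, 3.71 and 4.43 CPM (2.29 ± 0.27), and *Gnmt*, glycine N-methyltransferase, from 0.493, 0.268 and 0.379 CPM to 2.54, 2.11 and 1.37 CPM (2.37 ± 0.35). *Cyp2d22* (2.45), *Igsf1* (2.33), *Aifm3* (2.31, chromosome 16) and the brain cholesterol hydroxylase gene *Cyp46a1* (2.28) rose as well. The glutamate receptor gene *Grin2b* went from 2.52, 2.48 and 2.27 CPM to 22.8, 23.8 and 21.2 CPM (3.22 ± 0.13), but with offsets for transcript length its log2 fold change was 0.18. The U1 RNA copies *Rnu1a1* and *Gm26444*, whose sequences are near-identical, had 0 counts in the Neg EpiLC libraries and 1845 and 1702 counts over the 3×KD libraries, at least 605-fold and 558-fold higher when 3 counts over the group are taken as the floor. Both had reads in each ESC library of both lines. The near-identical copies *Cwc22rt7* and *Cwc22rt5* were likewise at 0 in Neg EpiLCs (at least 203-fold and 149-fold higher), and how reads were split among copies was not tested.

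Abundant genes called lower, beside *Dnmt3b*, *Arid1a* and *Dnmt3l*, were *Rest*, the repressor of neuronal genes, from 1099, 1057 and 1082 CPM to 597, 591 and 586 CPM (−0.87 ± 0.031, against 0.03 in ESCs), the helicase gene *Ddx5* (−0.67), the H3K36 methyltransferase gene *Nsd1* (−0.61), *Sf3b3* (−0.60), *Jade1* (−0.66), *Trim71* (−0.64) and *Nucks1* (−0.59). Several of these lay close to the fold limit. With scaling by library size alone *Nsd1* (−0.55), *Sf3b3* (−0.54), *Trim71* (−0.58) and *Nucks1* (−0.53) were not called, and *Nucks1* was not called without Neg replicate 1 (−0.56) or without 3×KD replicate 3 (−0.57), nor *Sf3b3* without Neg replicate 1 (−0.58). The abundant genes called higher were led by the glycolytic ones, and held *Eif4a2*, a translation initiation helicase on chromosome 16, which rose from 424, 419 and 396 CPM to 713, 731 and 757 CPM (0.83 ± 0.036). The mitochondrial-like pseudogene *Gm28661*, a sequence whose reads may come from the mitochondrial genome, was among them as well (0.61), but not without 3×KD replicate 3 (0.44) or without Neg replicate 1 (0.58).

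The EpiLC change could be set against the ESC change, which shares no library with it. Of the 2005 genes called higher in EpiLCs, 1123 were also called higher in ESCs, 20 were called lower there and 862 were not called. Of the 1362 genes called lower, 735 were also called lower in ESCs, 21 were called higher and 606 were not called. A difference between the states was called for 561 genes, 329 of them more positive and 232 more negative in EpiLCs. A difference was called for 155 of the 2005 genes called higher and for 95 of the 1362 called lower, so most genes not called in ESCs were not shown to differ. *Gadd45g*, a growth arrest gene, was called in opposite directions in the states. It fell from 80.2, 68.6 and 78.6 CPM to 14.9, 14.5 and 17.8 CPM in EpiLCs (−2.27 ± 0.078) and rose from 1.42, 1.51 and 1.48 CPM to 9.09, 9.63 and 9.66 CPM in ESCs (2.68), a difference of −4.94 ± 0.15.

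Chromosomes 16 and Y stood apart from the others between the lines. Among genes that average 1 CPM or more in the 6 libraries, of which 12.2% were called higher and 8.65% lower, the 442 on chromosome 16 had a median log2 fold change of 0.295, with 26.5% called higher and 1.8% lower, and medians of 0.205 to 0.471 in each of 8 consecutive windows along the chromosome. Their median in ESCs was 0.291. The 19 other chromosomes, without Y and the mitochondrial genome, had medians of −0.066 to 0.044. The 13 genes of chromosome Y had a median of −2.59 in both states, and 8 of them were called lower. The 5 not called were *Mid1-ps1* (−2.63), *Gm37158* (−0.27), *Erdr1y* (−0.02), ENSMUSG00000121554 (0.06) and ENSMUSG00000121560 (0.0079). *Uba1y*, a ubiquitin activating enzyme, was at 90.6, 92.5 and 93.7 CPM in Neg and 16.1, 15.2 and 14.6 CPM in 3×KD EpiLCs, and *Ddx3y*, an RNA helicase, at 55.1, 50.1 and 56.4 CPM in Neg and 6.51, 7.73 and 7.12 CPM in 3×KD. The same genes were as low in the 3×KD ESC libraries, at 16 to 18.1 CPM for *Uba1y* against 101 to 113 CPM in Neg. Line and guide set cannot be told apart here, and the part of these chromosomes in the other results was not tested beyond leaving their genes out. Then 1946 genes were called higher and 1285 lower, and 6 of the 55 lists lost a called member, 1 each.

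**Figure D5:**
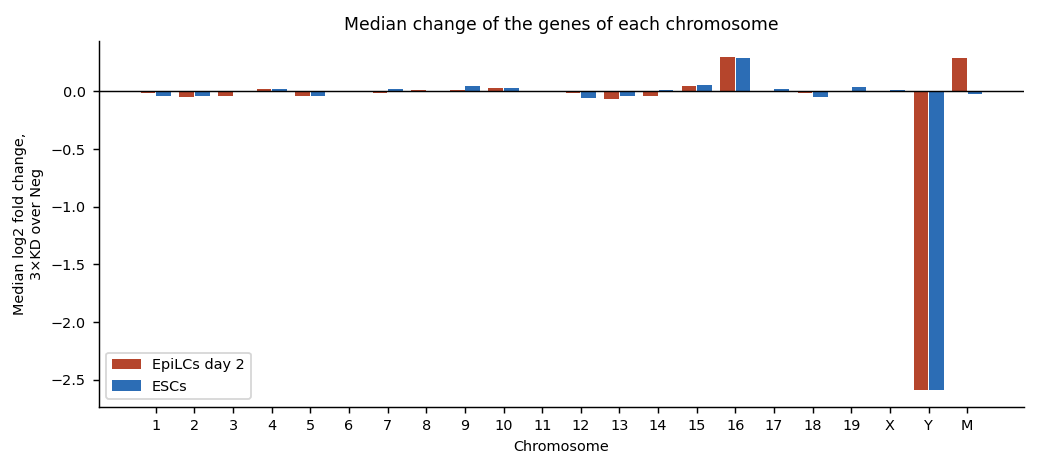
Median log2 fold change of 3×KD over Neg of the genes of each chromosome that average 1 CPM or more in EpiLCs, in EpiLCs (red) and ESCs (blue). Chromosome 16 is at 0.295 and 0.291, Y is at −2.59 in both, and the mitochondrial genome (M) is at 0.293 in EpiLCs only.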

How the data were processed

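RNA was measured in 12 libraries, and the 6 EpiLC libraries were compared. Per the labels libraries were made with ribosomal RNA depletion and a directional kit, although the molecule field names polyA RNA. The submitters' processing notes name bcl2fastq, Trim Galore 0.6.7, STAR 2.7.9a, Salmon 1.10.1 and GRCm39. The authors deposited Salmon tables of estimated counts for 149132 transcripts per library with a transcript-to-gene table. TPM values, relative to effective transcript length, were deposited beside them by the authors and were not compared between groups. Here the counts were summed over the transcripts of each gene and rounded to whole numbers.

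Samples were grouped by title. Genes with at least 10 counts in all were tested with edgeR 4.0.16 (R 4.3.3, limma 3.58.1), with TMM factors and a quasi-likelihood fit of the 4 groups over all 12 libraries, and p-values were adjusted over the 25446 genes. Calls needed an adjusted p under 0.01 and a log2 fold change beyond 0.58, and beyond 1 for the difference between the states. The SE is the log2 fold change over the root of F. DESeq2 1.42.0, other scalings and filters, transcript-length offsets, a replicate block, the 6 EpiLC libraries alone and leaving out each library were the alternatives. Leaving out chromosomes 16 and Y was chosen after seeing the data. Data were also simulated with 23814 genes, of which 71% of 100 changed by 1 on the log2 scale and 92% of 100 changed by 2 were recovered, with 1 false call. All groups were given the Neg EpiLC means, and only 200 genes at 1 CPM or more were changed. Those rates hold for that setting, which has far fewer changes than were called here.

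The members and gene lists were chosen with earlier results of these data known. Genes named were the targets, the 20 largest called changes and the 10 most abundant called genes in each direction, the 5 largest differences between the states in each direction, and up to 5 called members of each list in each direction, with other list members only by their values. Not every gene of that rule is described, and some are not reported here. The sequence at the *Me2* guide is not reported here.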

Additional observations from a re-analysis of the deposited data

Results flagged for a closer look

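For 10 genes the EpiLC change and the ESC change differed by edgeR's test of the difference itself, and they are the 5 largest called differences in each direction among genes that average 1 CPM or more. They were chosen for that size. Values are the log2 change in EpiLCs minus that in ESCs, and those that rest on a group at 0 depend on the prior count of the fit and are no bound.

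*Cwc22rt7* (21.3) was at 0 in the Neg EpiLC libraries and at 13, 5.18 and 20.6 CPM in 3×KD, while in ESCs it was at 8.77, 16.4 and 12.2 CPM in Neg and at 0 in 3×KD. The unnamed long noncoding RNA ENSMUSG00000121782 (16.5) was at 0 in Neg EpiLCs and in 3×KD ESCs. The pseudogene *Obox4-ps21* (12.4) was at 0, 0 and 16 CPM in Neg EpiLCs and at 0 in 3×KD ESCs. The U1 copies *Rnu1a1* (10.6) and *Gm26444* (10.5) were at 0 in Neg EpiLCs and had reads in each of the 9 other libraries. These 5 have near-identical copies or low levels, and the split of reads was not tested.

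The guanylate-binding protein genes *Gbp2* (−6.86) and *Gbp2b* (−6.5), which are close copies, rose in ESCs from 0 and from 0 to 0.0886 CPM. *Gbp2* was at −0.07 in EpiLCs and *Gbp2b* rose there by 0.89. *Gadd45g* (−4.94) fell in EpiLCs and rose in ESCs. *Clca1* (−3.52) was at −0.11 in EpiLCs and below 1 CPM in every ESC library. *Atp1a4* (−3.24) fell in EpiLCs from 2.96, 3.42 and 2.72 CPM to 0.496, 0.895 and 0.812 CPM and was not called in ESCs (1.2).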

How the results depend on the processing

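Against 2005 genes called higher and 1362 lower, DESeq2 gave 1789 and 1226, scaling by library size alone 2350 and 1097 (68.2% of calls higher against 59.5%, with the median of all genes at 0.091), no filter 2426 and 1359, and the 6 EpiLC libraries alone 1813 and 1419. Transcript-length offsets gave 1330 higher genes and 291 differences between the states. Leaving out 1 library gave 2934 to 3247 calls. At adjusted p under 0.05 with no fold limit 9694 genes passed (4835 higher, 4859 lower), and beyond a log2 fold change of 1 there were 1426 (972 and 454). Of 284 called genes named by the rule, 208 were called under every alternative that tested them, which is 16, or 15 for genes of chromosomes 16 and Y, and 62 were not with transcript-length offsets, under which *Rb1* (0.0013) and *Zeb2* (0.99) changed sign. Replicate numbers did not pair the libraries, since the deviations of same-numbered libraries correlated at −0.003, −0.066 and −0.135, and a replicate block gave 1940 higher and 1337 lower genes. Of 1980 list counts, 1758 were within 1.5 times the reported count. Genes below about 1 CPM rest on few counts.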
